A study of Homo sapiens with 24 samples.

Results

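The genes of the cytosolic ribosomal proteins were followed in 8 groups of U87-T glioblastoma cells. Members were the protein-coding genes of the count table whose GENCODE symbol is RPL or RPS followed by a number, with or without a final A or X, together with the stalk genes RPLP0, RPLP1 and RPLP2 and with RPSA. Ribosomal S6 kinase genes and symbols ending in L were left out. The rule found 77 of 57736 gene IDs, of which 46 belong to the large and 31 to the small ribosomal subunit, among 19391 protein-coding genes of the table. All 77 passed the filter on low counts in both series, and 76 of them had at least 10 counts in every library.

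A ribosome joins a small subunit, which reads the mRNA, to a large subunit, which forms the peptide bonds, and these genes encode nearly all proteins of both. Their mRNAs are among the most abundant of growing cells, and most of them begin with a C followed by a run of pyrimidines, the terminal oligopyrimidine (TOP) motif, through which mTOR signalling and the binding protein LARP1 control their translation and stability. Several ribosomal proteins that are not built into ribosomes bind MDM2, the ubiquitin ligase of p53, and stabilise p53 by doing so. Etoposide is a topoisomerase II poison that breaks DNA and activates p53.

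U87-T is the human glioblastoma line U87 transduced with TERT, the catalytic subunit of telomerase, and all 8 groups derive from it. DAXX_KO and ATRX_KO cells are each a clonal survivor of the loss of 1 histone chaperone gene, with features of ALT (telomere maintenance without telomerase), so a knockout effect and other properties of that clone cannot be told apart. The DAXX series and the ATRX series each hold their own WT libraries, and WT and KO cells were each taken in control conditions (untreated in the labels) or given etoposide, 3 libraries making up a group. The sources used here give no dose or time of etoposide for the RNA-seq libraries. Libraries titled DAXX KO carry a tag that gives their genotype as ATRX KO, and the titles were followed here. The study's reporting form calls the replicates of its experiments biological in general, but the labels do not say what separated these libraries (cultures, days or extractions), and p-values measure the spread between them.

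QuantSeq libraries, which read the 3′ ends of polyadenylated mRNAs, held 6928950 to 13298557 counts. DAXX mRNA was at 4.62 to 11.2 CPM in the 6 DAXX_KO libraries and at 20.8 to 35.3 CPM in the WT libraries of that series, and ATRX mRNA was at 60.5 to 87.5 CPM in ATRX_KO and at 171 to 196 CPM in its WT libraries. CPM values are counts relative to the library's total over the genes tested, after TMM scaling of the 12 libraries of a series, and are set side by side here only within a series. Of the markers of glioma and mesenchymal cells, VIM, NES, CD44 and TNC were present in all 24 libraries, whereas S100B was at 0 counts in 24, GFAP was at 3 counts or fewer in 23, SOX2 in 11 and OLIG2 in 10. Among markers of other cell types, ALB was at 3 counts or fewer in 24 libraries and PTPRC and EPCAM in 8 each, while CD68 (17.8 to 41.9 CPM) and KRT8 (3.73 to 29.8 CPM) were present in all.

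The start of the transcript is the sequence that these genes are known for, so it is shown first for 8 members whose values are described further on. RefSeq promoter windows of GRCh38.p14 were matched for 62 of the 77 members, and 15 had no match. In 46 of the 62 (74.2%), the annotated first base was a C followed by 4 bases that were each C or T, against 5.14% of 27305 genes with a window. The stretches hold 40 bases before the start and 20 from it, 5′ to 3′, and capitals mark the run of pyrimidines that begins at the first base of the transcript.
RPL12, chr9:127451387-127451446, minus strand: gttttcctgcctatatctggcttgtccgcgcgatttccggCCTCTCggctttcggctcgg
RPS9, chr19:54200818-54200877, plus strand: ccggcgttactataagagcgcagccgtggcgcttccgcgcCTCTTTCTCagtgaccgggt
RPL28, chr19:55385892-55385951, plus strand: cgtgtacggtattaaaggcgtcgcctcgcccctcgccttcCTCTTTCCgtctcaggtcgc
RPL18, chr19:48619159-48619218, minus strand: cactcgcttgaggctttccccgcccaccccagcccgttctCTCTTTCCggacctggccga
RPL38, chr17:74203638-74203697, plus strand: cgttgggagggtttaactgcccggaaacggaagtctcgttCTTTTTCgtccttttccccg
RPL7A, chr9:133348178-133348237, plus strand: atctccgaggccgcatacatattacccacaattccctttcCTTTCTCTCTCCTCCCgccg
RPS7, chr2:3575220-3575279, plus strand: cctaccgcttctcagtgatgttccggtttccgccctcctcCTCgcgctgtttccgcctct
RPS3A, chr4:151099588-151099647, plus strand: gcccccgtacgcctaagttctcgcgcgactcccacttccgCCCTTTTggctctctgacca

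The pyrimidine run was 16 bases long in RPL7A, 9 in RPS9 and 6 in RPL12, and in RPS7 it ended after 3 bases, so that RPS7 was not counted among the 46. Other motifs were searched on both strands of the windows of 300 bases, which reach from 250 bases before the start to 50 after it. The letters CCGGAAG (a core of sites for GABPA) were in 22 of the 62 members (35.5%) and in 12.2% of all genes with a window. The palindromic element bound by ZBTB33 was in 4 members (6.45%) against 0.505%. AAGATGG (a core of YY1 sites) stood in 8 members (12.9%) against 7.11%, TATAAA in 5 (8.06%) against 14.0%, and CACGTG in 4 (6.45%) against 8.77%. These shares rest on few members, and their differences were not tested.

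Together the members held 5.005 to 8.004% of the counts of a library, and the share was higher with etoposide in every line. In WT of the DAXX series it was 6.26, 6.12 and 6.35% in control and 7.71, 8.004 and 7.54% with etoposide. In DAXX_KO it was 5.74, 5.70 and 5.52% in control and 6.71, 7.003 and 6.86% with etoposide. All 3 etoposide libraries of both lines lay above all 3 control libraries, and DAXX_KO lay below WT in either condition. In WT of the ATRX series the share was 5.12, 5.55 and 5.18% in control and 7.23, 7.31 and 7.14% with etoposide. In ATRX_KO it was 5.44, 5.95 and 5.005% in control and 6.72, 6.58 and 7.08% with etoposide. ATRX_KO and its WT overlapped in control, while with etoposide all 3 ATRX_KO libraries lay below WT. The control libraries of WT also differed between the series, at 6.24% ± 0.117 (SD, n = 3) in the DAXX series and 5.29% ± 0.233 (SD, n = 3) in the ATRX series, with no overlap. BCYRN1, a small noncoding RNA, took 3.08 to 12.1% of the counts and moved with etoposide as well, from 6.15% ± 1.19 to 11.97% ± 0.295 in WT of the DAXX series and from 4.61% ± 0.811 to 9.46% ± 0.216 in WT of the ATRX series (SD, n = 3 each). With BCYRN1 left out of the totals, the members' share rose from 6.65% ± 0.160 to 8.80% ± 0.241 and from 5.54% ± 0.253 to 7.98% ± 0.0832 in the same groups. When the scaling was computed without BCYRN1 and the members, taken out together, 55 members were higher and 2 lower with etoposide in WT of the DAXX series and 57 and 3 in the ATRX series, close to the counts given next. In bulk libraries such as these, fewer cells of a type and less RNA per cell cannot be told apart.

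**Figure D1:**
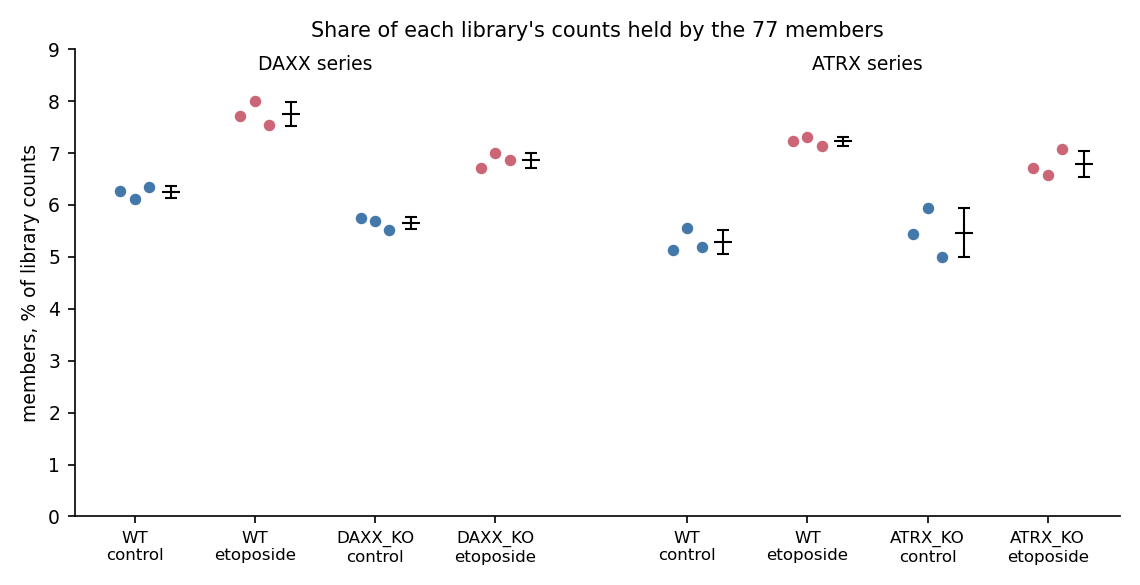
Percent of the counts of each library that fell on the 77 members (y axis) in the 8 groups (x axis). Dots are libraries (blue, control; red, etoposide) and the black bars beside them are the mean ± SD of 3 libraries. The etoposide libraries of each line lie above its control libraries, and the WT control libraries of the DAXX series lie above those of the ATRX series.

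The first question was how ribosomal protein mRNAs change when WT cells receive etoposide. In the DAXX series, 52 of the 77 members rose and 3 fell at an FDR of 5% (67.5 and 3.896%), where 60.2% of all 15247 genes tested were called, 29.6% higher and 30.6% lower. In the ATRX series, 60 rose and 3 fell (77.9 and 3.896%), where 61.5% of 16371 genes were called, 31.7% higher and 29.8% lower. The median log2 fold change of the members was 0.31 and 0.41, beside 0.02 and 0.07 for all genes. The rise was shared by the subunits, with 25 of 31 small and 27 of 46 large subunit genes higher in the DAXX series, and 25 and 35 in the ATRX series.

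In WT of the DAXX series the largest called rises were those of RPS9, RPL12 and RPS19. RPS9, a small subunit protein near the mRNA entry, was at 90.4, 89.6 and 84.0 CPM in control and at 186, 177 and 164 CPM with etoposide in WT of the DAXX series. In WT of the ATRX series it was at 88.5, 102 and 114 CPM and at 224, 209.8 and 221 CPM. The groups did not overlap in either series, and RPS9 rose by 1.00 ± 0.09 (log2 with SE, adjusted p = 1.7e-08 by edgeR's quasi-likelihood test) and by 1.11 ± 0.11 (adjusted p = 2.2e-07). RPL12, which sits at the base of the lateral stalk of the large subunit, rose from 596, 575 and 624 CPM to 1009.6, 1050.3 and 1040.2 CPM in the DAXX series (log2 0.79 ± 0.06, adjusted p = 2.5e-10). In the ATRX series it rose from 542, 568 and 522 CPM to 1048, 999 and 1059 CPM (log2 0.93 ± 0.08, adjusted p = 1.5e-08). Every etoposide library of RPL12 lay far above the control libraries in both series. RPS19, a small subunit protein that is mutated in Diamond-Blackfan anaemia, rose by 0.75 ± 0.06 and 0.87 ± 0.07 on the log2 scale (adjusted p = 2.2e-09 and 1.3e-08). CPM here are not values per length, and the levels of different members were not compared with each other.

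The 3 members of the P stalk, which recruits and activates the GTPase factors of translation, all rose in WT of both series. RPLP1 was at 1822, 1786 and 1746 CPM in control and 2404, 2448 and 2364 CPM with etoposide in the DAXX series. Its values in the ATRX series were 1484, 1687 and 1495 CPM and then 2396, 2480.4 and 2409 CPM. No control library reached an etoposide library, and RPLP1 rose by 0.43 ± 0.05 and 0.64 ± 0.10 (log2), RPLP0 by 0.53 ± 0.06 and 0.62 ± 0.08, and RPLP2 by 0.30 ± 0.06 and 0.46 ± 0.12, with adjusted p from 2.1e-07 to 0.0032.

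Of 8 members listed as MDM2 binders, a list that may be incomplete, 3 rose and 1 fell in WT of the DAXX series. In WT of the ATRX series 6 rose and 1 fell. Of all genes, 29.6 and 31.7% were higher and 30.6 and 29.8% lower in these responses. Whether the 8 differed from the other members was not tested. RPL11, which forms a particle with RPL5 and the small ribosomal RNA of the large subunit and inhibits MDM2 as part of it, was at 1135, 1189 and 1237 CPM in control and 1595, 1594 and 1547 CPM with etoposide in the DAXX series. It rose by 0.41 ± 0.06 there and by 0.46 ± 0.09 in the ATRX series (adjusted p = 8.0e-06 and 0.00026). Its partner RPL5 had a log2 fold change of 0.07 ± 0.09 (adjusted p = 0.55) in the DAXX series, where the groups overlapped at 406 to 495 CPM in control and 432 to 514 CPM with etoposide, and it rose by 0.26 ± 0.09 in the ATRX series (adjusted p = 0.015). RPS14 rose by 0.40 and 0.50 and RPS3 by 0.51 and 0.41. RPL23 had values of 0.01 and 0.16 (adjusted p = 0.88 and 0.11), and RPL26 and RPS27A, at 0.17 and 0.19 in the DAXX series (adjusted p = 0.13 and 0.21), rose by 0.48 and 0.51 in the ATRX series. RPS7 went the other way and was lower in both.

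The same 3 members fell in WT of both series, namely RPL7A, RPL34 and RPS7. RPL7A was at 814, 835 and 912 CPM in control and 653, 712 and 627 CPM with etoposide in the DAXX series. It was at 601, 617 and 585 CPM and then at 392, 431 and 381 CPM in the ATRX series. The groups did not overlap, and RPL7A fell by 0.36 and 0.58 on the log2 scale (adjusted p = 0.00026 and 0.0013). RPL34 fell by 0.36 and 0.27 (adjusted p = 0.026 and 0.036) and RPS7 by 0.29 and 0.34 (adjusted p = 0.048 and 0.018). The groups of RPS7 overlapped in the DAXX series, at 886 to 1133 CPM in control and 737 to 909 CPM with etoposide. In the last 300 bases of its transcript, 65.9% of the 75-base windows of RPL7A and 50.4% of those of RPS7 occur elsewhere in the genome, and none of those of RPL34.

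The knockout lines responded in the same direction. In DAXX_KO, 59 members rose and 0 fell with etoposide (76.6 and 0%), where 54.5% of all genes were called, 26.8% higher and 27.8% lower, and the median log2 fold change of the members was 0.37. In ATRX_KO, 35 rose and 1 fell (45.5 and 1.30%), where 49.5% of all genes were called, 24.3% higher and 25.2% lower, with a median of 0.23. Scaling by library totals alone called 48 members higher and 1 lower in DAXX_KO and 48 higher and 0 lower in ATRX_KO. RPL12 rose in the knockouts as in WT, from 361, 356 and 375 CPM to 679.9, 673 and 717 CPM in DAXX_KO and from 438, 477 and 473 CPM to 896, 754 and 767 CPM in ATRX_KO. RPL18 rose in DAXX_KO from 335, 304 and 433 CPM to 709, 698 and 833 CPM (log2 1.06 ± 0.10, adjusted p = 2.7e-08), with no overlap between the groups. The 1 member lower in ATRX_KO was RPL7A, which fell by 0.36 (adjusted p = 0.033) with overlapping groups.

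Across the 4 etoposide responses, which share no libraries, 30 members rose in all and 3 were called in none. Calls shared by responses, here and below, were not counted over all genes. In the single responses 24.3 to 31.7% of all genes were higher. The 30 included the stalk genes RPLP0 and RPLP1, RPL11, and RPS2, RPS9, RPS14, RPS19 and RPSA of the small subunit. The 3 without a call were RPL14, RPL23A and RPS23, and RPS23, a protein of the decoding centre, had log2 fold changes of −0.06 and −0.04 in the WT responses. Between the WT responses of the series, the log2 fold changes of the 77 members had a Spearman correlation of 0.699, and 47 members rose in both and 3 fell in both. This describes genes of the same libraries, which share the scaling, and all 15039 genes tested in both series had a correlation of 0.884. RPS27 was the 1 member called different between the WT responses, by −0.42 ± 0.11 (adjusted p = 0.027), where 3.15% of all genes were called (1.42% higher, 1.73% lower), and 0 members were called when any WT library but control replicate 2 of either series was left out. It rose by 0.20 in the DAXX series and by 0.63 in the ATRX series.

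**Figure D2:**
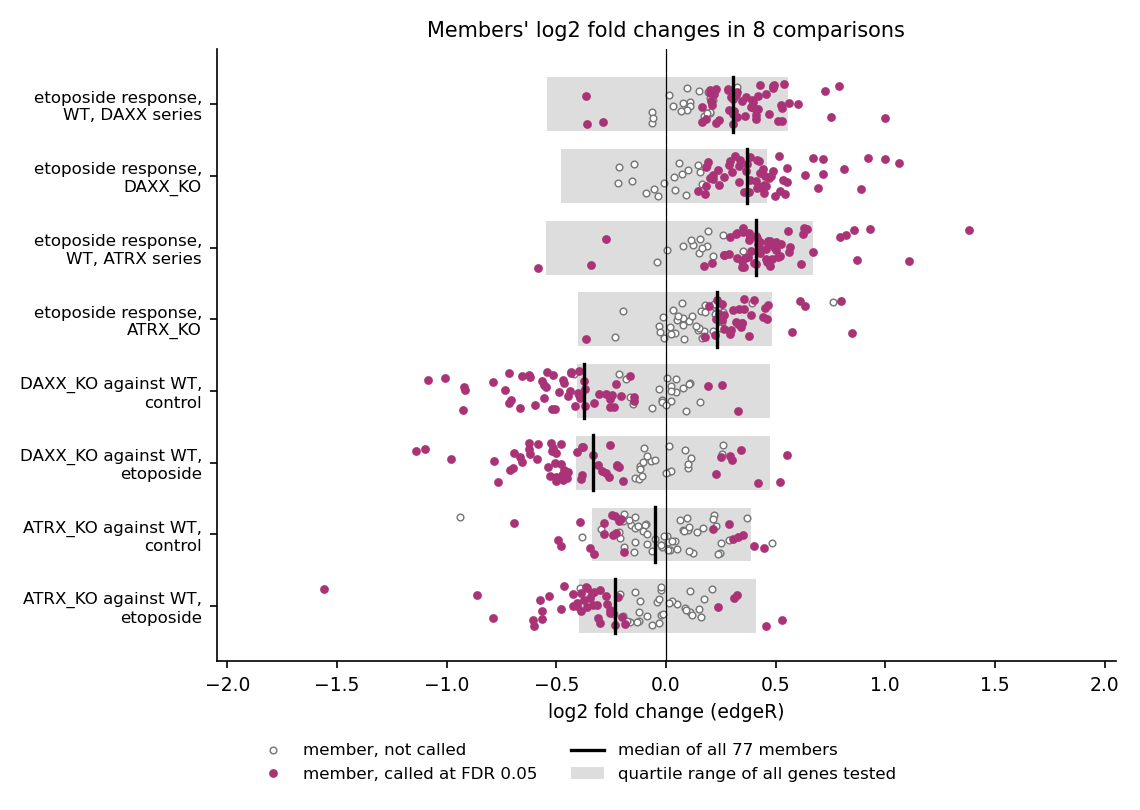
Log2 fold changes of 74 of the 77 members (x axis) in the 4 etoposide responses and the 4 knockout effects (rows). Filled points passed an FDR of 0.05, open points did not, black lines are the medians of the members, and grey bars span the quartiles of all genes tested. Medians lie right of 0 in the etoposide responses and left of 0 in the knockout effects, that of ATRX_KO in control being −0.05 over all 77 members.

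In DAXX_KO against WT, most members were lower. In control, 52 fell and 3 rose (67.5 and 3.896%), where 53.4% of all genes were called, 26.6% lower and 26.7% higher, and the median log2 fold change was −0.38, beside 0.02 for all genes. With etoposide, 48 fell and 9 rose (62.3 and 11.7%), where 53% of all genes were called, 25.2% lower and 27.9% higher, with a median of −0.33. Both subunits took part, with 22 of 31 small and 30 of 46 large subunit genes lower in control. Of the 76 genes of the mitochondrial ribosome, 45 were lower and 3 higher in control. Library totals as the only scaling moved the median of all genes from 0.02 to 0.20 in control and left 38 members lower and 13 higher. When WT control of the ATRX series was the reference in place of its own, DAXX_KO had 24 members lower and 17 higher, with a median of −0.06, and against its etoposide libraries 32 lower and 18 higher, with a median of −0.10.

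RPL38 was the member with the largest fall in DAXX_KO. This large subunit protein was at 1333, 1237 and 1377 CPM in WT control and 621, 597 and 639 CPM in DAXX_KO control. With etoposide it was at 1537, 1488 and 1509 CPM in WT and 695, 730.2 and 630.1 CPM in DAXX_KO. Every DAXX_KO library lay below every WT library, with log2 fold changes of −1.09 ± 0.06 (adjusted p = 3.2e-11) and −1.14 ± 0.06 (adjusted p = 2.0e-11). The gene lies on chromosome 17 of GRCh37 at 72199721 to 72206794, plus strand, and the 60 tested genes nearest to it, 30 on each side, had a median of −0.74 in control. RPL4, which lines the exit tunnel through its long loop, fell from 270.2, 255.9 and 296 CPM to 147, 136 and 126 CPM in control (log2 −1.01 ± 0.11, adjusted p = 2.0e-07), where its neighbours had a median of −0.19. RPL22, RPL24 and RPL19 fell by 0.93, 0.92 and 0.92 (adjusted p = 1.2e-07, 3.3e-09 and 2.1e-06), and the neighbours of RPL22 and RPL19 had medians of 0.06 and −0.17. Over all 77 members, the median was −0.38 and the median of their neighbours' medians 0.05, and 3 members lay above their own neighbours. Among the 52 called lower, a choice made by these same values, these medians were −0.46 and −0.05.

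The 3 members that rose in DAXX_KO in control were RPS3A, RPL39 and RPL9. RPS3A, a small subunit protein, was at 201, 206 and 224 CPM in WT and 262, 269.7 and 261 CPM in DAXX_KO, and at 253, 264 and 265 CPM and 373, 352 and 394 CPM with etoposide. The groups were apart in both conditions, with log2 fold changes of 0.33 ± 0.06 (adjusted p = 0.00021) and 0.52 ± 0.06 (adjusted p = 1.0e-06). RPL39 and RPL9 rose by 0.25 and 0.19 in control (adjusted p = 0.019 and 0.017). The neighbours of RPS3A, RPL39 and RPL9 had medians of 0.49, 0.41 and 0.51, so none of the 3 exceeded its neighbours. In these 3 genes 97.8, 92.5 and 94.2% of the 75-base windows near the transcript end occur elsewhere in the genome.

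By role, all 3 stalk genes fell in DAXX_KO in control, RPLP1 most, from 1822, 1786 and 1746 CPM to 1324, 1312 and 1335 CPM (log2 −0.43 ± 0.05, adjusted p = 1.2e-06). RPLP0 and RPLP2 fell by 0.24 and 0.23 (adjusted p = 0.0020 and 0.0031). Of the 8 genes whose proteins surround the exit of the tunnel, 7 fell and 1, RPL39, rose in control, and the counts were the same with etoposide. Of the 8 listed members that bind MDM2, 7 fell in control, among them RPL23, from 977, 961 and 1091 CPM to 603, 598 and 553 CPM (log2 −0.79 ± 0.07, adjusted p = 1.1e-08). RPL26, RPS27A and RPS7 fell by 0.72, 0.71 and 0.67, RPL5 by 0.39, and RPL11 and RPS14 by 0.37 each, while RPS3 was at −0.06 ± 0.07 (adjusted p = 0.47) with overlapping groups. With etoposide 6 of the 8 were lower, and RPS14, at −0.05 ± 0.07 (adjusted p = 0.57), and RPS3, at −0.12 ± 0.07 (adjusted p = 0.13), were not called. Of 16 genes listed as linked to Diamond-Blackfan anaemia, 13 fell in control. Of all 77 members, 52 were lower in control and 48 with etoposide, beside 26.6 and 25.2% of all genes. Whether any of these roles differed from the other members was not tested.

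In ATRX_KO against WT, the change in control was smaller and mixed. In control, 17 members fell and 7 rose (22.1 and 9.09%), where 41.8% of all genes were called, 21% lower and 20.8% higher, and the median was −0.05. The members' share of lower calls was near that of all genes. With etoposide, 39 fell and 5 rose (50.6 and 6.49%), where 45.9% of all genes were called, 22.9% lower and 23% higher, with a median of −0.23. Library totals as the only scaling gave 8 lower and 12 higher in control and 29 lower and 7 higher with etoposide. Without WT control replicate 2 of the ATRX series, 13 members were called in control in place of 24, and without ATRX_KO control replicate 3, 14 were lower and 17 higher. With WT control of the DAXX series as the reference, ATRX_KO had 48 members lower and 0 higher, with a median of −0.32, and against its etoposide libraries 54 lower and 1 higher, with a median of −0.37.

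RPL38, with the large fall in DAXX_KO, was also lower in ATRX_KO in control, from 1199, 1298 and 1149.7 CPM to 695, 758 and 805 CPM (log2 −0.69 ± 0.10, adjusted p = 2.9e-05), and its neighbours were again lower, with a median of −0.49. Every ATRX_KO library of RPL38 lay below every WT library. With etoposide it was at 1660.2, 1538 and 1642 CPM in WT and 1065, 816 and 785 CPM in ATRX_KO (log2 −0.86 ± 0.10, adjusted p = 2.4e-06). RPL23A fell by 0.49 ± 0.15 (adjusted p = 0.014), and its neighbours had a median of 0.05.

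The largest rises in ATRX_KO in control were those of RPS23, RPS4X and RPL27A. RPS23 was at 308, 299.6 and 309.5 CPM in WT and 351, 536 and 365 CPM in ATRX_KO, and with etoposide at 299, 298 and 295 CPM and 369, 416 and 503 CPM. All ATRX_KO libraries lay above WT and were more spread than those of WT, and the log2 fold changes were 0.45 ± 0.13 (adjusted p = 0.011) and 0.53 ± 0.13 (adjusted p = 0.0034). RPS4X and RPL27A rose by 0.40 and 0.35 (adjusted p = 0.0071 and 0.0049). Against WT of the DAXX series, RPS23 and RPS4X changed direction in control, to −0.16 and −0.01.

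None of the 3 stalk genes was called in ATRX_KO in either condition. RPLP1 was at 1861, 2085 and 1489.7 CPM in ATRX_KO and 1484, 1687 and 1495 CPM in WT control, groups that overlapped (log2 0.22 ± 0.10, adjusted p = 0.075). Of the listed members that bind MDM2, RPL26 alone was called in control, at −0.48 ± 0.12 (adjusted p = 0.0035), and RPS27A, at 1335, 1979.9 and 1014 CPM in ATRX_KO against 1015, 1078 and 1009 CPM in WT, had a value of 0.48 ± 0.21 (adjusted p = 0.071). With etoposide, RPL26, RPS3, RPS14, RPL5 and RPL23 were lower, by 0.79, 0.30, 0.27, 0.25 and 0.22. Of all genes, 21% were lower in control and 22.9% with etoposide.

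**Figure D3:**
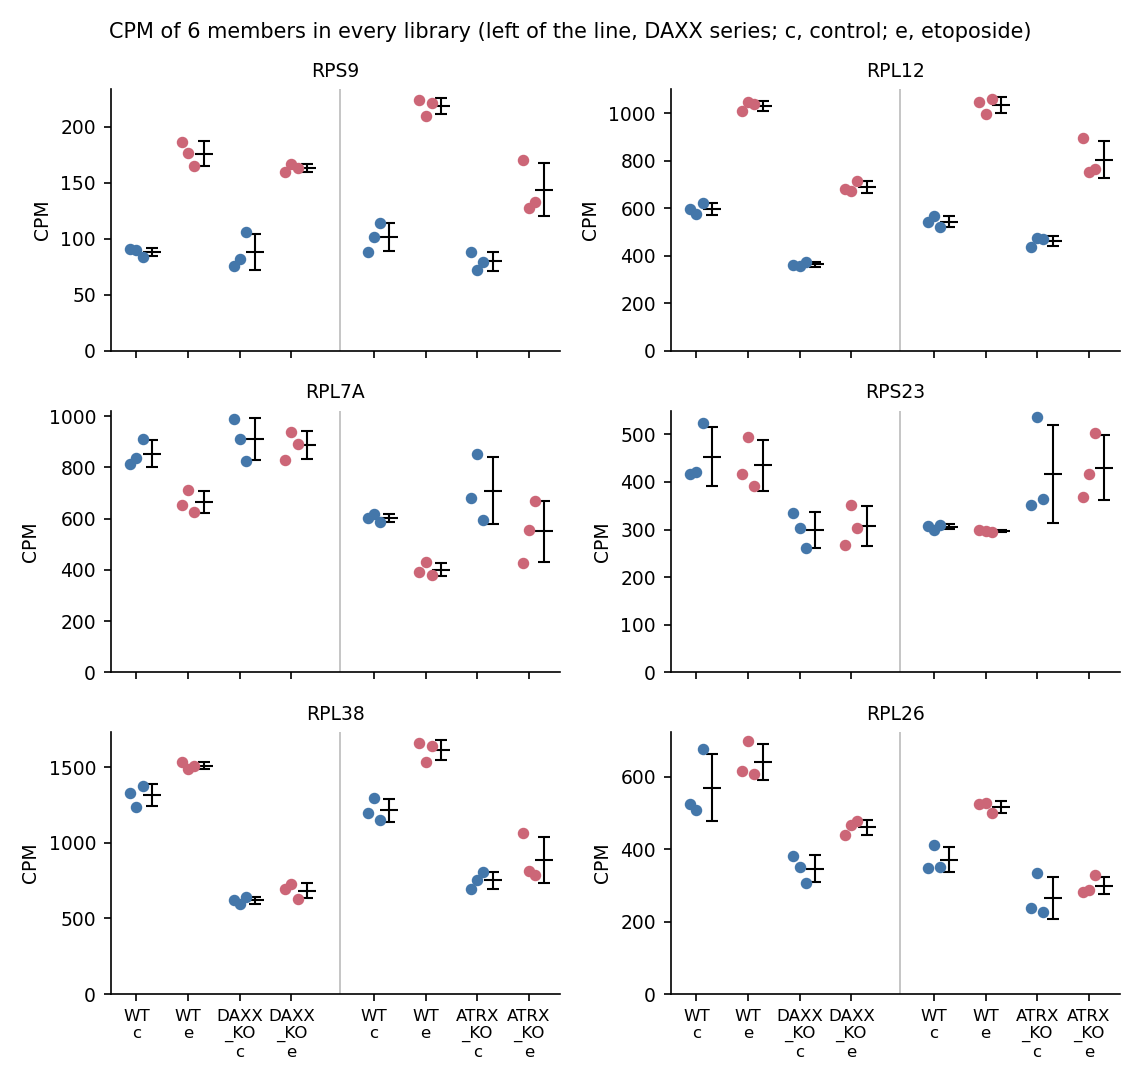
CPM of 6 members (y axes, from 0) in every library of the 8 groups (x axis; c, control; e, etoposide; the grey line separates the series, which were scaled separately). Dots are libraries and black bars are the mean ± SD of 3. RPS9 and RPL12 are higher with etoposide in every line, RPL7A is lower with it in both WT groups, RPS23 differs between WT and the 2 knockouts in opposite directions, and RPL38 and RPL26 are lower in the knockouts.

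The knockout effects of the DAXX and ATRX series share no libraries. In control, 13 members fell in both, which is 25% of the 52 lower in DAXX_KO and 76.5% of the 17 lower in ATRX_KO, 1 rose in both and 5 were called in opposite directions. With etoposide, 28 fell in both (58.3 and 71.8%), 1 rose in both and 5 were opposite. The Spearman correlation of the members' log2 fold changes between the series was 0.279 in control and 0.262 with etoposide, beside 0.397 and 0.445 over all genes. In all 4 knockout effects 13 members were lower and 0 were higher, among them RPL3, RPL4, RPL12, RPL23A, RPL24, RPL26, RPL32, RPL35A, RPL36 and RPL38 of the large and RPS16 of the small subunit. These joint counts were not made over all genes, of which 21 to 26.6% were lower in the single effects. Ranked by the smaller of the changes in control, RPL38 and RPL26 led. RPL26 was at 525, 508 and 676 CPM in WT and 381, 349.8 and 308 CPM in DAXX_KO, and at 349, 410.2 and 352 CPM in WT and 237, 333 and 226 CPM in ATRX_KO. For both genes, every KO library lay below every WT library of its series in control. RPL9 was the member that rose in both.

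**Figure D4:**
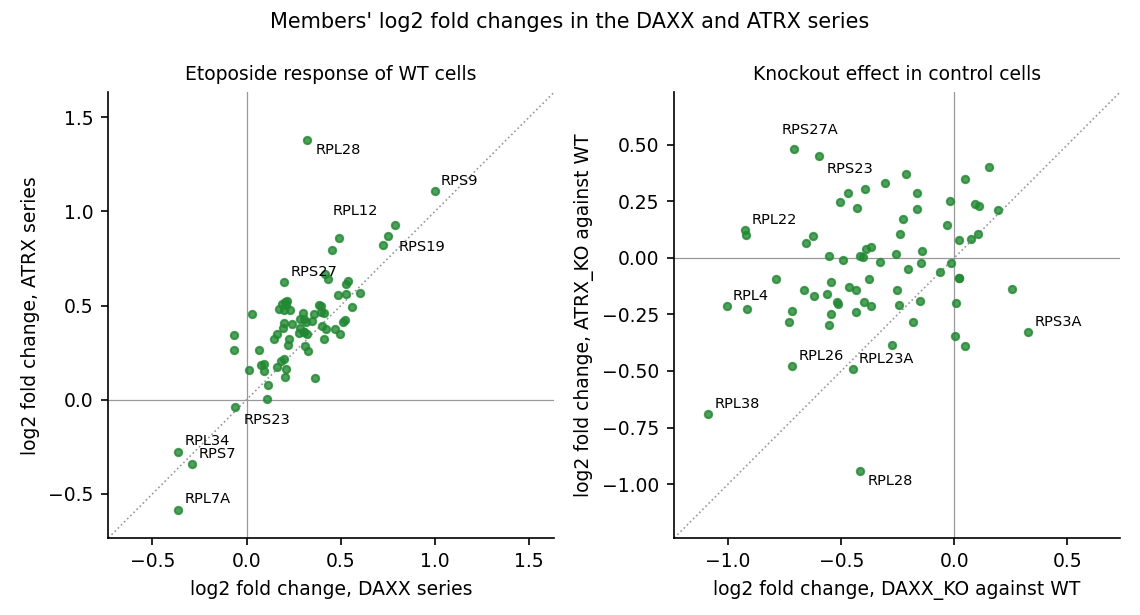
Log2 fold changes of 74 of the 77 members in the DAXX series (x axes) and the ATRX series (y axes), on the left for etoposide in WT and on the right for the knockout in control. Each point is a member, and the dotted line marks equal values. On the left most points lie near the line (Spearman correlation 0.699 over all 77 members), and on the right they spread widely (0.279 over all 77).

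The difference between the knockout effects was tested in 1 model of all 24 libraries. In control, 40 members differed, 36 of them lower in DAXX_KO and 4 higher (46.8 and 5.19%), where 34.1% of all 16674 genes tested were called, 17.2% lower and 17% higher. Library totals as the only scaling gave 21 lower and 6 higher. With etoposide, 30 differed, 20 lower and 10 higher in DAXX_KO (25.97 and 12.99%), where 34.5% of all genes were called, 16.8% lower and 17.7% higher. RPS27A, RPS23 and RPL22 were furthest apart in control, by −1.19 ± 0.27 (adjusted p = 0.0011), −1.05 ± 0.19 (adjusted p = 0.00012) and −1.04 ± 0.13 (adjusted p = 7.0e-07). RPS3A and RPL29 were higher in DAXX_KO relative to ATRX_KO, by 0.66 and 0.44. These differences contain that of the WT libraries, which was tested too: in control, 44 members were higher in WT of the DAXX series than in WT of the ATRX series and 0 were lower (57.1 and 0%), with a median of 0.29, where 13.2% of all genes were called, 6.01% higher and 7.22% lower. RPL5, at 275 to 312 CPM in WT of the ATRX series, was higher by 0.68 ± 0.10 (adjusted p = 4.8e-05), RPS27A by 0.85 ± 0.19 (adjusted p = 0.0039), and RPS9 was at −0.16 (adjusted p = 0.39). The series and whatever else differed between their libraries cannot be told apart.

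Whether a knockout changed the response to etoposide was tested by the interaction, the response of the KO minus that of WT. For DAXX_KO 6 members were called, 5 above and 1 below 0 (6.49 and 1.30%), where 14.2% of all genes were called, 8.38% above and 5.79% below 0. Library totals as the only scaling called 2, both below 0. For ATRX_KO 1 was called, below 0 (1.30%), where 16% of all genes were called, 7.64% below and 8.36% above 0. Of the 77 interaction values in ATRX_KO 10 were above 0, and the median of the 77 was −0.18. The median of all genes was 0.01 with RLE scaling, a different setting from the TMM scaling of the members' values. The members share the scaling, and a change of the members as a set was not tested. RPS28, a small subunit protein at the mRNA exit, was at 790.4, 901 and 775 CPM in WT control and 1066, 1036 and 1069 CPM in WT with etoposide, against 831, 839 and 984 CPM and 1674, 1302 and 1678 CPM in DAXX_KO. The etoposide libraries of DAXX_KO were the highest of the 4 groups, and the interaction was 0.45 ± 0.12 (adjusted p = 0.020). RPL7A and RPS14 had interactions of 0.33 and 0.32 (adjusted p = 0.039 and 0.031). RPS10 responded in WT, from 1141, 1087 and 982 CPM to 1323, 1299 and 1395 CPM, and was at 932, 996 and 965 CPM and 997, 879.6 and 911 CPM in DAXX_KO, an interaction of −0.38 ± 0.09 (adjusted p = 0.0079). In the ATRX series the values of RPS10 were of the same kind, with an interaction of −0.37 ± 0.14 (adjusted p = 0.088). RPSA was the member called there, rising by 0.57 in WT and 0.23 in ATRX_KO, an interaction of −0.34 ± 0.10 (adjusted p = 0.026). With single libraries left out, 1 to 8 members were called for DAXX_KO, 1 without WT control replicate 2 or DAXX_KO control replicate 2. For ATRX_KO 0 to 12 were called, 12 without ATRX_KO etoposide replicate 1 and 7 without ATRX_KO control replicate 3.

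RPL28 was spread widely within groups, at 442, 217 and 205 CPM in WT control of the DAXX series, 83.1, 202 and 412 CPM in WT control of the ATRX series and 222, 77.1 and 63.96 CPM in ATRX_KO control. Its median coefficient of variation within groups was 44.2%, and the called fall in ATRX_KO with etoposide, −1.56 ± 0.47 (adjusted p = 0.011), separated 568, 637 and 609 CPM in WT from 132, 183 and 300.005 CPM. The most even members were RPLP1, RPL7 and RPL27, with median coefficients of 2.67, 2.73 and 2.78%.

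Ribosomal protein genes have many processed pseudogenes, copies of the mRNA in the genome, and reads from a gene and its copies can be confused. Of the 77 members, 36 had no 75-base window in the last 300 bases of the transcript with an exact match elsewhere in GRCh37, 41 had some and 18 had over 50%. Copies that differ by a few bases were not counted, so confusion with them is not excluded for the 36. Among the 36 without such windows, 24 were higher and 1 lower in the etoposide response of WT in the DAXX series (median 0.29), 27 and 1 in the ATRX series (median 0.41), while 22 were lower and 0 higher in DAXX_KO against WT in control (median −0.37). Of all genes, 29.6 and 31.7% were higher in these responses and 26.6% were lower in DAXX_KO in control. Counts assigned to pseudogenes named after a member were 0.151 to 0.257% of a library, of which RPS28P7 held 40.3% over all libraries. Beside their own parent genes, some of these copies were not small. RPS28P7 had 3771 to 13124 counts in a library, where RPS28 had 6355 to 14989. RPS23P8 had 1166 to 4699 counts, where RPS23 had 2165 to 6675. How far reads were exchanged between these genes and their copies was not tested. The members with the C and pyrimidine start and those without it were also counted apart, with 34 of 46 and 11 of 16 higher in the etoposide response of WT in the DAXX series (medians 0.29 and 0.33), and 28 of 46 and 13 of 16 lower in DAXX_KO in control (medians −0.29 and −0.42).

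Genes that work with the members were taken from lists. FAU, which encodes a ribosomal protein fused to a ubiquitin-like protein and so falls outside the naming rule, rose with etoposide in WT, by 0.55 in the DAXX series and by 0.68 in the ATRX series. RACK1, a scaffold protein on the head of the small subunit, was at 1229, 1121 and 1211 CPM in WT control and 1153, 1192 and 1136 CPM in WT with etoposide of the DAXX series, against 692, 701 and 691 CPM and 628, 688 and 654 CPM in DAXX_KO. It was thus lower in DAXX_KO (log2 −0.77 and −0.82) and was not called in any etoposide response or in ATRX_KO. Of 14 translation factor and related genes with TOP motifs, 3 rose and 5 fell with etoposide in WT of the DAXX series (21.4 and 35.7%, beside 29.6 and 30.6% of all genes), and 2 rose and 3 fell in the ATRX series (14.3 and 21.4%, beside 31.7 and 29.8%). In DAXX_KO in control 9 fell and 1 rose (64.3 and 7.14%, beside 26.6 and 26.7%). In ATRX_KO 7 of the 14 were higher and 1 lower in control (beside 20.8 and 21% of all genes), and 9 were higher and 2 lower with etoposide (beside 23 and 22.9%). EEF2, the translocation factor, was at 0.54 and 0.66 there. Of 39 genes of ribosome assembly, 9 rose and 18 fell with etoposide in WT of the DAXX series (23.1 and 46.2%) and 13 rose and 17 fell in the ATRX series (33.3 and 43.6%), with NCL (nucleolin) at −1.15 and −0.96. In DAXX_KO in control 34 of the 39 fell and 0 rose (87.2 and 0%), with NOP56 at −1.39 and NPM1 at −1.13, and in ATRX_KO in control 14 fell and 3 rose (35.9 and 7.69%).

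The paralog RPS27L, a target gene of p53, was at 424, 437 and 424 CPM in WT control and 1981, 1855 and 2193 CPM with etoposide in the DAXX series, and at 411, 473 and 388 CPM and 2382, 2161 and 2541 CPM in the ATRX series. It rose by 2.23 and 2.48, beside 0.20 and 0.63 for RPS27. In the knockouts it rose by 1.47 and 1.496, with interactions of −0.76 and −0.98 that were both called. Among genes that regulate ribosomal protein mRNAs, LARP1 (−0.44, −0.46, −0.62 and −0.63), MYC (−2.58, −2.55, −2.25 and −1.67) and YY1 (−0.63, −0.42, −0.57 and −0.42) fell with etoposide in WT and DAXX_KO and in WT and ATRX_KO, while SESN2, an inhibitor of mTOR signalling, rose by 2.28 to 3.56 and PDCD4, a translation inhibitor, by 0.62 to 1.88. EIF4EBP1, also a translation inhibitor, was lower with etoposide in every line. Its values in WT of the DAXX series were 56.9, 60.8 and 50.2 CPM in control and 36.9, 34.0 and 38.9 CPM with etoposide. GABPA overlapped there, at 6.37 to 9.22 CPM and 5.95 to 7.83 CPM. Of all genes, 24.3 to 31.7% were higher and 25.2 to 30.6% lower in the single responses. In the knockout effects in control LARP1 had values of −0.11 and 0.09, neither called, and RPS6KB1, a kinase of ribosomal protein S6, was lower in both, by 0.83 and 0.79. Its paralog RPS6KB2 was not lower in DAXX_KO in control, at 24.9, 30.3 and 44.6 CPM against 22.3, 18.5 and 19.6 CPM in WT. In the ATRX series RPS6KB2 overlapped in control, at 34.1, 18.5 and 10.6 CPM in ATRX_KO and 11.3, 29.1 and 39.3 CPM in WT.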

How the data were processed

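RNA-seq of 24 libraries (8 groups, 3 libraries each) was analysed. Per the labels and the study's methods, the authors extracted RNA with Trizol, made QuantSeq 3′ mRNA libraries, sequenced single reads of 75 bases, aligned them with STAR to hg19 and counted genes with RSEM (version 1.2.3 in the submitters' processing notes, a different version in the paper's methods). The deposited table held whole-number counts for 57736 gene IDs, which were not normalized. Of these, 55501 were matched to GENCODE release 44 on GRCh37, which held 98.8% of the counts, and all sample columns were mapped to samples by name. Library totals ranged from 6928950 to 13298557 counts, and 3 counts were 0.226 to 0.433 CPM. Counting intervals and floors cover counting error only.

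Groups were taken from the sample titles. The 12 libraries of a series were fitted together with edgeR 4.0.16 (R 4.3.3), with TMM scaling, filterByExpr (minimum count 10, minimum total 15) and the quasi-likelihood test. Calls used a Benjamini-Hochberg FDR of 0.05 over all genes tested, 15247 in the DAXX and 16371 in the ATRX series. Differences between the series came from 1 model of all 24 libraries (16674 genes). Named members were those of the MDM2-binding and P stalk lists, the 3 largest called rises and falls of each comparison, and the 3 leading members called in both knockouts; others named in the text were chosen after their values were seen. Some genes are not reported by name here or drawn in the figures, but stay in the counts and medians. The members and lists were chosen with earlier results of these data known. The fit was also run on data simulated from its own model. Such a run cannot show how well it calls real libraries, or changes smaller than those simulated. No replicate pair was alike within sampling noise (chi-square per degree of freedom 2.16 to 17.1 over 24 pairs). Alternatives were DESeq2 1.42.0, RLE scaling, library totals, other filters, a replicate block, 1 model of all libraries, scaling without the members and BCYRN1 together, single libraries left out and, chosen after seeing the data, WT of the other series as the reference. Promoter sequences came from RefSeq (GRCh38.p14), and figures were drawn with matplotlib 3.10.9.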

Additional observations from a re-analysis of the deposited data

Results flagged for a closer look

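Each of the following differences between groups passed the test of the difference itself, by edgeR's quasi-likelihood test with Benjamini-Hochberg adjustment. For the response to etoposide in DAXX_KO minus that in WT, 6 members were called (7.79%, below the 14.2% of all genes), among them RPS28 (0.45 on the log2 scale), RPL7A (0.33), RPS14 (0.32) and RPS10 (−0.38). For the same difference in ATRX_KO 1 member was called (1.30%, below the 16% of all genes), RPSA (−0.34).

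For the knockout effect of DAXX_KO minus that of ATRX_KO, 40 members were called in control (51.9%, beside 34.1% of all genes), led by RPS27A (−1.19), RPS23 (−1.05) and RPL22 (−1.04) below 0 and with RPS3A (0.66) and RPL29 (0.44) above it. With etoposide 30 were called (39.0%, near the 34.5% of all genes), led by RPS23 (−1.05), RPL19 (−0.96) and RPL4 (−0.78) below 0 and with RPL28 (1.80), which varied widely within groups, and RPS3A (1.10) above it. For the response of WT in the DAXX series minus that in the ATRX series, 1 member was called (1.30%, beside 3.15% of all genes), RPS27 (−0.42).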

How the results depend on the processing

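Over all alternatives, 287 counts of members called stayed within 1.5 times the reported count and 41 moved further. Of the values of single members, 4657 kept their direction and side of the threshold, 241 fell short of it, 63 passed it anew and 13 changed direction. For the interaction of DAXX_KO and etoposide, 6 members called became 2 with library totals, 11 with no filter on low counts, 2 with at least 10 counts in every library, 3 with a replicate block and 1 with all libraries in 1 model, and 1 to 8 with single libraries left out. For that of ATRX_KO, 1 became 3 with DESeq2, 6 with no filter, 3 with at least 10 counts in every library and 3 with 1 model, and 0 to 12 with single libraries left out. For ATRX_KO against WT in control, 24 became 48 with WT of the DAXX series as the reference and 13 to 31 with single libraries left out. For the WT responses between the series, 1 became 4 with no filter, 0 with the replicate block and 0 to 1 with single libraries left out, and for WT control between the series 44 became 29 with the replicate block. The cause was not tested.

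All 13 changes of direction came with WT of the other series as the reference. They were RPL5 (0.28), RPLP2 (0.0305) and RPS27A (0.14) for DAXX_KO in control, RPL5 (0.0244), RPS27A (0.0921) and RPS7 (0.26) for DAXX_KO with etoposide, RPS23 (−0.16), RPS4X (−0.0057), RPL5 (−0.64) and RPL9 (−0.25) for ATRX_KO in control, and RPS23 (−0.0385), RPL7A (−0.29) and RPL31 (−0.0593) for ATRX_KO with etoposide. With BCYRN1 out of the totals, the share of counts in members was 6.65% and 8.80% in WT control and etoposide and 5.96% and 7.57% in DAXX_KO of the DAXX series, and 5.54% and 7.98% in WT and 7.12% in ATRX_KO with etoposide. With pseudogenes added it was 6.44% in WT control, 5.81% in DAXX_KO control and 7.07% in DAXX_KO with etoposide, and 7.41% in WT with etoposide of the ATRX series. Library totals alone moved the median log2 fold change of all genes to 0.20 for DAXX_KO in control, to −0.11 for the etoposide response of DAXX_KO and to 0.11 for ATRX_KO with etoposide.

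Samples with the same replicate number did not deviate together, with 36 correlations from −0.32 to 0.08 and 0 above 0.1, so the numbers were not taken as pairs. With the replicate block the other counts of members called stayed within 1.5 times the reported ones. With 3 libraries per group and 1 clone per knockout, the spread between clones is not measured.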
